A study of Mus musculus with 6 samples.

Results

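Matrix metalloproteinases and their tissue inhibitors, the TIMPs, were described in mouse GL261 glioma cells and in the cultures labelled glioblastoma stem cells that were derived from them. The 10 genes were chosen by name, with earlier results of these data known, as were the gene lists used below. The members are the metalloproteinases Mmp2, Mmp3, Mmp9, Mmp14, Mmp15 and Mmp16 and the inhibitors Timp1, Timp2, Timp3 and Timp4. They are 10 of the 54446 genes listed in the files. GL261 is an established mouse glioma line, and its 2 libraries came from cells kept in a differentiation medium that held fetal calf serum. GL261-GSCs were kept in a defined stem cell medium without a stated composition, and were represented by 4 libraries. The labels name no genotype change, drug or time course, and give the medium and the derivation of the cultures as the differences between the groups. All 6 libraries were droplet-based 5' single-cell RNA-seq, made after Accutase dissociation and a lysis buffer with a non-ionic detergent, and the labels do not say whether whole cells or nuclei were loaded. The labels also do not say whether replicates were separate cultures, so that p-values measure only the spread between these libraries, which may be technical.

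Matrix metalloproteinases are zinc-dependent enzymes that cut collagens, laminins, proteoglycans and many cell surface proteins. They are made as inactive zymogens, and the membrane-type members sit in the cell membrane, where MMP14 together with TIMP2 can activate pro-MMP2. TIMPs bind the active sites of these enzymes, and TIMP3, which is held in the extracellular matrix, also inhibits several ADAM and ADAMTS proteases. In glioma these enzymes are known for their part in remodelling brain matrix during invasion.

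Called cells numbered 4264 to 7275 per library and held 33320530 to 79472306 UMIs, each UMI being 1 captured RNA molecule. Median depth was 15478 and 13652 UMIs per cell in GL261 and 6670 to 15375 in GL261-GSCs. GL261-GSCs replicate 4 stood apart, with the lowest median depth, the lowest share of UMIs in cells at 41.2% and the highest level of the nuclear RNA Malat1, at 8134 CPM against 2875 to 4569 CPM in the other 5 libraries. CPM is the number of UMIs of a gene scaled to a library total of 1000000. Pairs of libraries shared 32 to 59 cell barcodes, beside 26.1 to 57.9 given by chance over the listed barcodes. Among markers of other cell types, the microglia and macrophage list of 10 genes summed to 19.9 to 21.0 CPM in GL261 and 9.22 to 23.2 CPM in GL261-GSCs. Nearly all of that was Csf1r, with 1632 and 59 UMIs and called lower in GL261-GSCs, and Cd68, with 956 and 3903 UMIs and not called, while Ptprc had 2 and 4 UMIs and C1qa none. The endothelial list of 6 genes summed to 0.895 to 1.69 CPM and 0.467 to 1.14 CPM, with 1 of 3 tested genes called lower and Cldn5 at 0 UMIs. The neutrophil list of 6 genes summed to 0.298 to 0.7999 CPM and 0.0250 to 0.359 CPM, with its 1 tested gene not called and S100a9 at 1 UMI in all. The summed levels of 8 pericyte and fibroblast markers were 252 to 287 CPM in GL261 and 11.2 to 27.0 CPM in GL261-GSCs, nearly all of them Col1a1, while Col1a2, Rgs5 and Kcnj8 had 0 UMIs in GL261. Of the 3 tested, Col1a1 and Pdgfrb were called lower, with a median log2 fold change of -3.93. The astrocyte list of 6 genes summed to 46.1 to 48.0 CPM in GL261 and 112 to 188 CPM in GL261-GSCs, with Aqp4 at 0 UMIs in both. Of its 4 tested genes, 2 were called lower, Gfap (165 and 3 UMIs) and Aldh1l1 (872 and 2 UMIs), 1 was called higher, Slc1a3 (11 and 18753 UMIs), and Gja1 was not called (4973 and 20280 UMIs), with a median log2 fold change of -2.75. The neuron list of 6 genes summed to 111 to 112 and 129 to 245 CPM, with Rbfox3 at 0 UMIs. Of its 4 tested genes, with a median log2 fold change of 3.55, 2 were called higher, Map2 (2906 and 29738 UMIs) and Syt1 (3 and 7942 UMIs). The other 2 were not called, and most of the list sum in GL261 came from genes other than Map2 and Syt1. The call of Syt1 was lost under limma-voom (adjusted p = 0.236), without GL261 replicate 1 and without GL261 replicate 2. The calls in these lists stand beside 15.8% of all 18439 genes tested called higher and 14.1% called lower. The part of these markers in the results on proteases and inhibitors was not tested.

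The promoters of Timp1, Timp3 and Mmp14, which were lower in GL261-GSCs, and of Mmp15, which was higher, are shown as the called members whose RefSeq window lies at least in part upstream of the GENCODE gene. Timp2 fell as well, but its RefSeq window lies wholly inside the GENCODE gene and is not shown, and it holds none of the letters marked here, so that the display is not a full set of the genes that fell. RefSeq held promoter entries for 7 of the 10 genes in the GRCm38.p6 build, with none for Mmp2, Mmp9 and Mmp16. Each sequence runs 5′ to 3′ on the strand of the gene and covers up to 250 bases before the RefSeq start, ending where the GENCODE M21 gene begins if that comes first. Capitals mark AGGAAG, a longer form of the GGAA core of ETS factor sites, on either strand. Other forms around that core were not searched. The letters GGAA also stand unmarked in the windows shown, that of Mmp15 among them.
The Timp1 window lies at chrX:20869916-20870165, plus strand.
Timp1 promoter: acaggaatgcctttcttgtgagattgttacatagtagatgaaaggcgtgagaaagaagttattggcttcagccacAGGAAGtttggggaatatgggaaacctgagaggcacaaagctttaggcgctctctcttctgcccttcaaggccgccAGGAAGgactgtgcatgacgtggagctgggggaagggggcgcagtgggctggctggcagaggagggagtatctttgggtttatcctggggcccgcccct
The Timp3 window lies at chr10:86300162-86300371, plus strand.
Timp3 promoter: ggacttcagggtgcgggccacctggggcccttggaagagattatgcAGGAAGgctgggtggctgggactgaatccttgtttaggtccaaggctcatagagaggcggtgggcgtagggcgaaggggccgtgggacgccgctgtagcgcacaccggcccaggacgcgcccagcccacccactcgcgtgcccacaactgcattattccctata
The Mmp14 window lies at chr14:54431348-54431597, plus strand.
Mmp14 promoter: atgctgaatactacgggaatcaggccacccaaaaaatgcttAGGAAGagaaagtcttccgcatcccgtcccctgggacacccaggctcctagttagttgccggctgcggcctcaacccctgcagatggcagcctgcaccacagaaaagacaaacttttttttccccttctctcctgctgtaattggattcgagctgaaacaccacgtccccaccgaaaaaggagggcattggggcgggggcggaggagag
The Mmp15 window lies at chr8:95352046-95352267, plus strand.
Mmp15 promoter: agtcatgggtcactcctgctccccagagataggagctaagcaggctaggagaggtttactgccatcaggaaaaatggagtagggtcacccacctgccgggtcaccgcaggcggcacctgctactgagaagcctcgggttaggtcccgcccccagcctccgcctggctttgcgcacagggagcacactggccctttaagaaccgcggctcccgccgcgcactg
In the full windows of 250 bases, AGGAAG was found at 2 places in Timp1, at 99 and 175 bases before the start. It was found at 1 place each in Timp3, Timp4, Mmp14 and Mmp3, and at none in Mmp15 and Timp2. Of all 32851 mouse promoter windows of this length, 29.5% held it. The AP-1 letters TGANTCA, searched on both strands, were found in the window of Mmp3 alone among the 7, 46 bases before its start, and in 6.75% of all windows. A match describes the letters only.

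Timp1, Timp2 and Timp3 were lower in GL261-GSCs, whereas the proteases were divided. Of the 10 genes, 8 had enough UMIs to be tested. A call means an adjusted p under 0.05 in the quasi-likelihood test of edgeR. It was made for 6 genes, of which 2 were higher in GL261-GSCs and 4 lower, beside 29.9% of the 18439 genes that entered the test, 15.8% called in the one direction and 14.1% in the other. The 2 groups did not overlap for any of the 8 genes tested, while they did not overlap for 56.7% of the 18439 genes in the test. Over all genes in the test the median log2 fold change was 0.04. Fold changes are GL261-GSCs over GL261, from the UMIs of all called cells of a library added up, and levels are in CPM after TMM scaling.

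**Figure D1:**
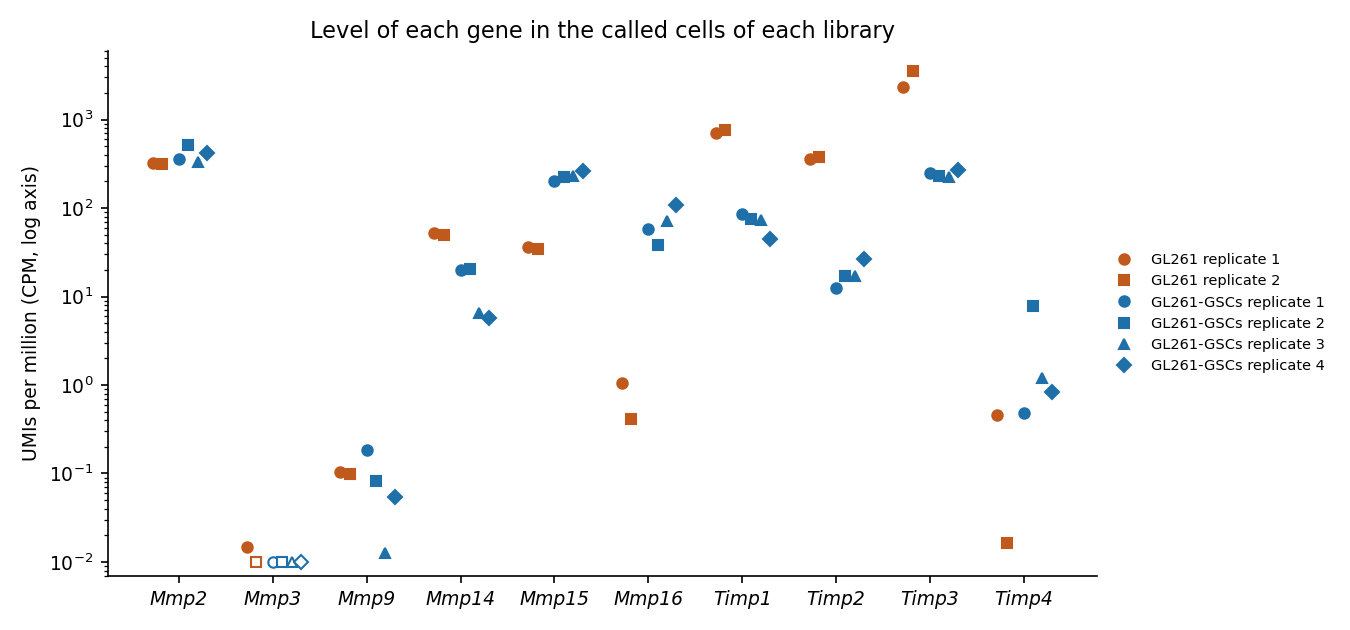
Level of the 10 genes in each library, in CPM on a log axis. Orange points are the 2 GL261 libraries and blue points the 4 GL261-GSCs libraries, and open points at 0.01 are libraries with 0 UMIs. Timp1, Timp2 and Timp3 lie at 361 to 3518 CPM in GL261 and at 12.6 to 270 CPM in GL261-GSCs.

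Of the secreted proteases among these 10 genes, Mmp2, Mmp3 and Mmp9, only Mmp2 was present at more than trace level. Mmp2 (ENSMUSG00000031740.8, chromosome 8, 92827291 to 92853420, GRCm38), the gelatinase that cleaves denatured collagen and type IV collagen, stood at 324 and 318 CPM in GL261 and at 356, 511, 336 and 424 CPM in GL261-GSCs replicates 1 to 4. The lowest GL261-GSCs library was just above the higher GL261 library, and replicates 2 and 4 were the highest. The log2 fold change of 0.34 (SE 0.20) did not pass the test (adjusted p = 0.227, edgeR). Mmp9, the other gelatinase, had 13 UMIs in GL261 against 21 in GL261-GSCs, a ratio of 0.811 (95% counting interval 0.387 to 1.76). Mmp3, or stromelysin 1, had a single UMI, in GL261. Neither gene was tested, and at these depths no difference in them was detectable.

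The membrane-type proteases moved in opposite directions. Mmp15 (ENSMUSG00000031790.8, chromosome 8, 95352268 to 95375080), which encodes MT2-MMP, stood at 36.5 and 34.4 CPM in GL261 and at 205, 224, 229 and 265 CPM in GL261-GSCs. All 4 GL261-GSCs libraries were far above both GL261 libraries, and the spread within each group was small. Its level was 6.51-fold higher in GL261-GSCs (log2 fold change 2.70, SE 0.16, adjusted p = 0.000123, edgeR). Mmp16 (ENSMUSG00000028226.15, chromosome 4, 17852893 to 18119145), which encodes MT3-MMP, a membrane protease known from brain and glioma, had 71 and 25 UMIs in GL261 and 2740 to 5783 in each GL261-GSCs library. That gave 1.05 and 0.414 CPM in GL261 and 58.0, 37.8, 72.3 and 109 CPM in GL261-GSCs, with replicate 4 the highest. Nearly all Mmp16 UMIs were thus in GL261-GSCs, where the level was 93.6-fold higher (log2 fold change 6.55, SE 0.67, adjusted p = 0.0008, edgeR). The size of that fold rests on few GL261 UMIs, with a log2 fold change of 7.37 without GL261 replicate 1 and 6.03 without GL261 replicate 2, and the call held in both.

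Mmp14 (ENSMUSG00000000957.11, chromosome 14, 54431612 to 54445364), which encodes MT1-MMP, the collagenase of the cell surface and activator of pro-MMP2, went the other way. It stood at 51.9 and 50.03 CPM in GL261 and at 19.8, 20.6, 6.49 and 5.71 CPM in GL261-GSCs replicates 1 to 4. Replicates 3 and 4 lay well below replicates 1 and 2, and the GL261-GSCs libraries differed among themselves more than the GL261 libraries did. With the replicate number as a block, the log2 fold change of Mmp14 was -1.34, still called. That block takes the group difference from replicates 1 and 2 alone, since replicates 3 and 4 exist only in GL261-GSCs. Without a block the log2 fold change was -1.95 (SE 0.54, edgeR adjusted p = 0.0347). The call was lost without GL261 replicate 1 (adjusted p = 0.148), without GL261 replicate 2 (0.148) and without GL261-GSCs replicate 3 (0.0639), with log2 fold changes of -1.93, -1.98 and -1.72.

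The make-up of the transcripts of Mmp14, Mmp15 and Mmp16 differed accordingly. Each UMI is counted once per captured molecule, whatever the length of the gene, so that levels of these genes can be added. How well each gene is captured was not measured, so that sums and shares are of captured molecules. Mmp14, Mmp15 and Mmp16 together summed to 89.5 and 84.9 CPM in GL261 and to 283, 282, 308 and 380 CPM in GL261-GSCs. Mmp14 made up 58.0% and 59.0% of their UMIs in GL261 and 7.002%, 7.28%, 2.11% and 1.504% in GL261-GSCs. Mmp15 made up 40.8% and 40.6% in GL261 and 69.8% to 79.3% in GL261-GSCs, and Mmp16 made up 1.17% and 0.488% against 13.4% to 28.7%. These shares use the values that gave the fold changes above and were not tested again. Other membrane-anchored proteases outside the chosen genes, such as Mmp17, are not in these sums or shares.

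**Figure D2:**
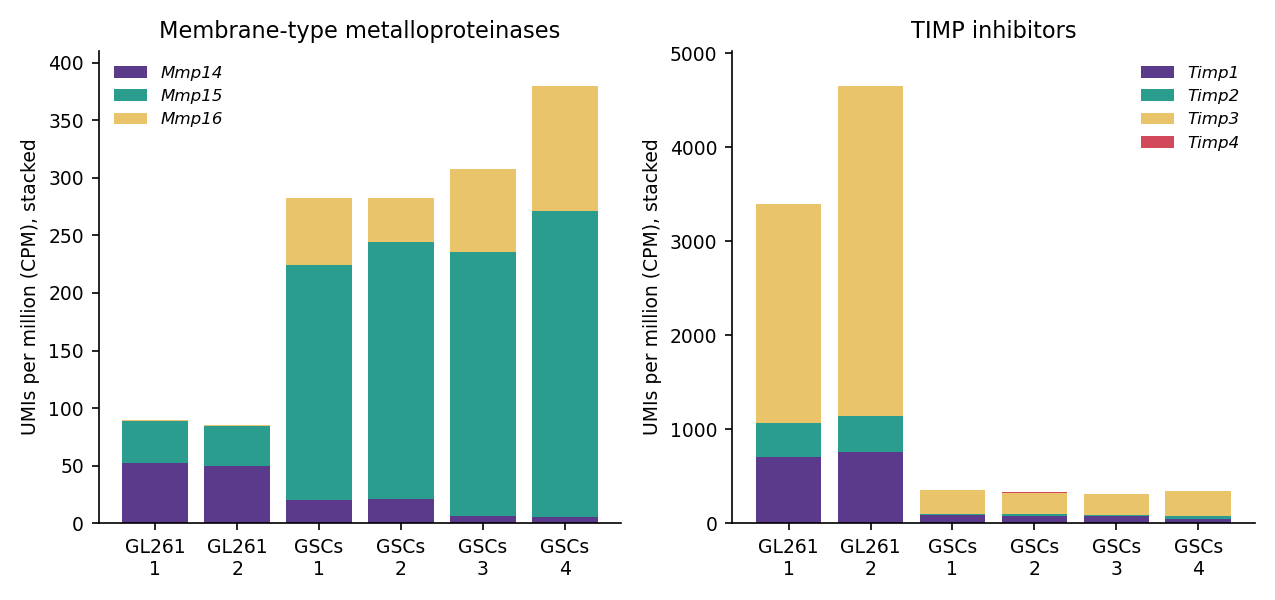
Stacked levels, in CPM, of the 3 membrane-type proteases among the members (left) and the 4 inhibitors (right) in each library. Replicate numbers stand under the group names. Of these 3 proteases, Mmp14 is the main transcript in both GL261 libraries and Mmp15 in all 4 GL261-GSCs libraries. The summed inhibitors stand at 3400 and 4654 CPM in GL261 against 315 to 350 CPM in GL261-GSCs.

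Timp3 (ENSMUSG00000020044.13, chromosome 10, 86300372 to 86349506), the matrix-bound inhibitor, was the most abundant of the 10 genes in GL261, at 2335 and 3518 CPM. It stood at 251, 232, 223 and 270 CPM in GL261-GSCs. The GL261-GSCs libraries lay close together, while the 2 GL261 libraries differed by more than the whole GL261-GSCs level. Timp3 was 11.99-fold lower (log2 fold change -3.58, SE 0.19, edgeR adjusted p = 9.6e-05). Timp1 (ENSMUSG00000001131.11, chromosome X, 20870166 to 20874735), a secreted inhibitor that also binds pro-MMP9, stood at 704 and 757 CPM in GL261 and at 85.5, 75.1, 73.8 and 44.5 CPM in GL261-GSCs. Replicate 4 was the lowest of them, and the level was 10.5-fold lower than in GL261 (log2 fold change -3.39, SE 0.25, edgeR adjusted p = 0.00025).

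Timp2 (ENSMUSG00000017466.9, chromosome 11, 118301069 to 118355740, minus strand), the inhibitor that bridges MT1-MMP and pro-MMP2, had the largest fall of the 3 that fell. It stood at 361 and 379 CPM in GL261 and at 12.6, 17.2, 16.9 and 26.5 CPM in GL261-GSCs, a level 20.2-fold lower (log2 fold change -4.34, SE 0.28, adjusted p = 0.000155, edgeR). Both GL261 libraries were far above the highest GL261-GSCs library. Timp4 (ENSMUSG00000030317.8, chromosome 6, 115241892 to 115252205, minus strand), the inhibitor known from heart and brain, was scarce everywhere, at 0.459 and 0.0166 CPM in GL261 and 0.485, 7.83, 1.201 and 0.824 CPM in GL261-GSCs. Replicate 2 held 567 of the 725 Timp4 UMIs of GL261-GSCs, and the lowest GL261-GSCs library was level with GL261 replicate 1. Its log2 fold change of 3.42 (SE 1.59) did not pass the test (adjusted p = 0.147, edgeR), although DESeq2 called it (adjusted p = 0.0181). In edgeR the log2 fold change was 1.81 without GL261-GSCs replicate 2, 7.12 without GL261 replicate 1 and 2.49 without GL261 replicate 2.

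Summed over the 4 inhibitors, GL261 held 3400 and 4654 CPM and GL261-GSCs 350, 332, 315 and 342 CPM. The 6 proteases summed to 413 and 403 CPM in GL261 and to 639, 794, 644 and 804 CPM in GL261-GSCs. The inhibitor transcripts thus outnumbered the protease transcripts 8.23 and 11.5 times in GL261, while the same ratio was 0.547, 0.419, 0.489 and 0.426 in GL261-GSCs. The ratio is of captured RNA molecules and does not measure protein or activity. Without GL261-GSCs replicate 4, the library that stood apart, Mmp14, Mmp15, Mmp16, Timp1, Timp2 and Timp3 were all still called, with log2 fold changes of -1.69, 2.65, 6.27, -3.20, -4.55 and -3.61. Within the UMIs of the inhibitors, Timp3 made up 68.7% and 75.6% in GL261 and 69.9% to 79.0% in GL261-GSCs, and Timp1 20.7% and 16.3% against 13.0% to 24.5%, so that the groups overlapped for both. They did not overlap for Timp2, at 10.6% and 8.15% against 3.60% to 7.74%, or for Timp4, at 0.0135% and 0.000356% against 0.139% to 2.36%.

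The order of the levels was Timp3, Timp1, Timp2, Mmp2, Mmp14, Mmp15, Mmp16 and Timp4 in GL261, down to trace levels of Mmp9 and Mmp3. Timp2 at 361 to 379 CPM and Mmp2 at 318 to 324 CPM were neighbours whose libraries did not overlap, whereas Timp4 overlapped both its neighbours, Mmp16 and Mmp9. In GL261-GSCs, Mmp2 came first, followed by Timp3 and Mmp15, whose library ranges of 223 to 270 and 205 to 265 CPM overlapped. Timp1 at 44.5 to 85.5 CPM and Mmp16 at 37.8 to 109 CPM came next and overlapped too, as did Timp2 and Mmp14, at 12.6 to 26.5 and 5.71 to 20.6 CPM, and Mmp14 and Timp4, with its highest library at 7.83 CPM.

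Shares of cells with 1 or more UMIs were taken after each cell was thinned to 2000 UMIs, and no share could pass an exact permutation test, whose smallest 2-sided p with 2 and 4 libraries is 0.133. Timp3 was seen in 76.9% and 88.0% of the GL261 cells, against 37.6%, 35.5%, 33.9% and 42.6% in GL261-GSCs. Timp1 was seen in 58.1% and 61.6% against 15.1%, 13.0%, 11.7% and 7.91%. Timp2 was seen in 46.7% and 47.4% against 2.77%, 3.76%, 3.77% and 5.19%. These shares come from the same UMIs as the summed levels and largely follow them, so that they are not separate evidence of the falls. Mmp15 was seen in 6.49% and 5.88% of GL261 cells and in 32.6%, 37.0%, 36.2% and 42.8% of GL261-GSCs cells. Mmp16 was seen in 0.291% and 0.07997% against 12.6%, 8.89%, 16.4% and 25.8%. Mmp2 was present in a large share of both, 45.0% and 41.3% of GL261 cells and 49.0% to 60.5% of GL261-GSCs cells, and Mmp14 in 8.96% and 9.24% against 4.24%, 4.57%, 1.55% and 1.33%. For Mmp2, Mmp14, Mmp15, Mmp16, Timp1, Timp2 and Timp3 the exact permutation p was the smallest possible, 0.133 (0.190 after adjustment over the 10 genes), and for Timp4 it was 0.267.

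Free RNA at the level of near-empty barcodes would have given smaller shares than these. The highest such shares were 10.9% and 11.8% for Timp3 in GL261, 8.91% for Mmp2 and 5.84% for Mmp15 in GL261-GSCs replicate 4, and 5.03% for Timp1 in GL261 replicate 1. For Timp2 in GL261-GSCs they were 0.166% to 0.714%, below the measured 2.77% to 5.19%. Without thinning, where the deeper libraries show more, mean shares were 92.6% and 15.9% for Timp2, 91.8% and 46.9% for Timp1, 96.8% and 79.5% for Timp3, 90.4% and 92.4% for Mmp2, 44.2% and 14.1% for Mmp14, 30.3% and 79.9% for Mmp15 and 0.937% and 46.2% for Mmp16 in GL261 and GL261-GSCs. The difference of Timp3 was thus smaller without thinning, at -17.3 percentage points against -45.1 with it, as was that of Mmp2, at 1.98 against 11.3. At full depth free RNA alone would have given larger shares too, 47.7% and 48.2% for Timp3, 24.9% and 20.9% for Timp1 and 16.3% and 13.0% for Timp2 in GL261. In GL261-GSCs the highest were in replicate 4 for Mmp2, Mmp15 and Timp3, at 21.5%, 14.4% and 11.6%.

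**Figure D3:**
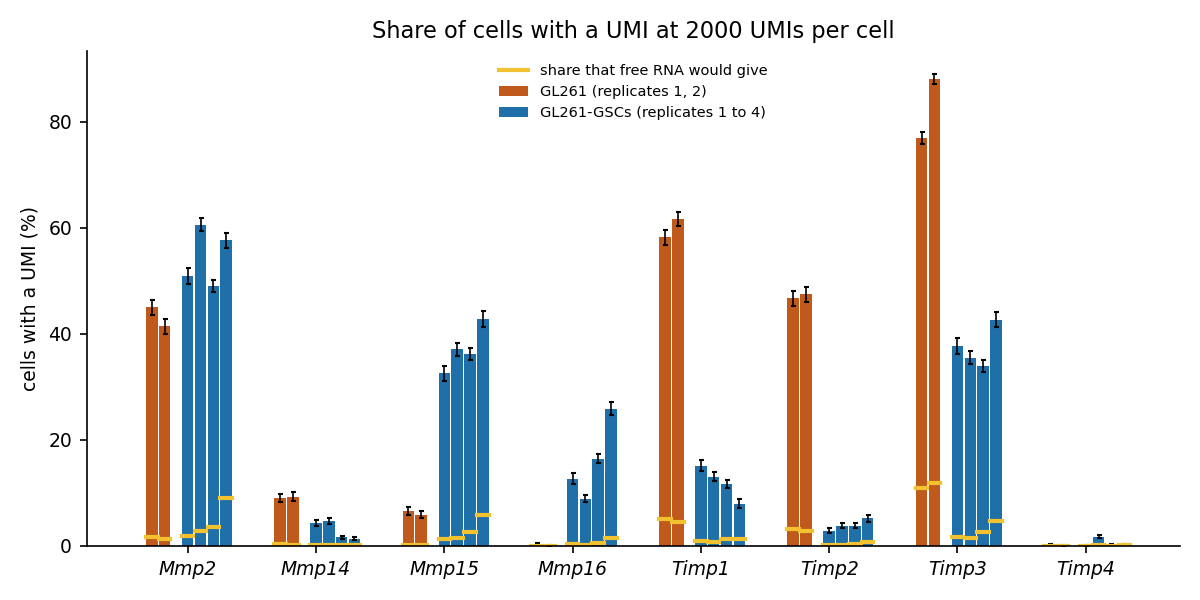
Percentage of cells with 1 or more UMIs of each gene after thinning to 2000 UMIs per cell. Bars are libraries in order of replicate number, error bars are exact binomial 95% intervals that cover counting error only, and yellow lines are the shares that free RNA would give. Timp1, Timp2 and Timp3 stand higher in both GL261 libraries, and Mmp15 and Mmp16 in all 4 GL261-GSCs libraries.

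Timp3 varied widely over the cells of GL261. The variance of its thinned UMIs per cell was 7.89 and 8.36 times the mean in GL261, beside 1.23 to 1.64 in GL261-GSCs. In GL261 replicate 1 the median cell held 11.7 Timp3 UMIs per 10000, the 10th percentile 1.67 and the 90th percentile 54.7. In GL261 replicate 2 these were 22.1, 3.65 and 72.0. In GL261-GSCs the medians were 2.04, 1.84, 1.74 and 2.33 per 10000, and the 90th percentiles 5.74 to 8.45. The median GL261 cell thus held more Timp3 than 9 in 10 cells of each GL261-GSCs library. Timp1 had ratios of 2.0004 and 1.89 in GL261, and Mmp2 ratios of 1.28 to 1.71 over all 6 libraries. This ratio grows with the mean, which was 4.36 and 6.47 thinned UMIs per cell for Timp3 in GL261, 0.484 to 0.698 for Timp3 in GL261-GSCs and 0.603 to 1.16 for Mmp2, so that the ratios do not rank the genes or groups by evenness.

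One cell of GL261-GSCs replicate 3 held 131 Timp1 UMIs, 2.22% of the Timp1 UMIs of its library, while the next held 11. That cell had 11329 UMIs in all, with 359 of ferritin Fth1, 55 of Anxa1 and 21 of Spp1, and 0 of Olig2, Ly6a and Ptprc. At the library mean the same depth would give 44.1 of Fth1, 0.582 of Anxa1, 0.203 of Spp1 and 8.97 of Olig2. It would give 0 of Ly6a and Ptprc, so that their zeros say nothing of this cell. Without it the log2 fold change of Timp1 was -3.40 in place of -3.39. The variance of thinned Timp1 UMIs was 1.89 times the mean in that library, beside 0.999 to 1.10 in the other GL261-GSCs libraries.

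Across single cells, the genes whose levels went most closely with Timp3 in GL261 were Thbs1, Syn3, Actn1, Col1a1 and Flna, with correlations of 0.491 to 0.498, 0.402 to 0.429, 0.391 to 0.468, 0.379 to 0.404 and 0.356 to 0.394 in the 2 libraries. Syn3 overlaps Timp3 on the opposite strand, with 1733 shared exon bases. The strand setting of the counting is unknown here, so that reads of the 2 genes on those shared bases may have been mixed. In GL261-GSCs the correlation of Syn3 with Timp3 was 0.0679 to 0.0947. Those of Timp1 in GL261 were S100a6, Emp3, Anxa2, Tmsb10 and S100a10, with S100a6 at 0.435 to 0.524, whereas in GL261-GSCs they were Rps2, Lgals1, Rpl8, Atp5g3 and Rps14, with Rps2 at 0.200 to 0.228. The inhibitors Timp1 and Timp3, the pair computed, had correlations with each other of 0.120 to 0.175 in GL261 and -0.0625 to -0.0156 in GL261-GSCs. In GL261-GSCs, Mmp2 went most closely with Itgb1, Sparcl1, Neb, Aplp2 and App, with Itgb1, an integrin subunit, at 0.332 to 0.415. Itgb1 and App were also among the 5 closest to Mmp2 in GL261, at 0.264 to 0.329 and 0.329 to 0.336, with Sparc first at 0.337 to 0.383. The highest value for Timp3 in GL261-GSCs was with the protease gene Adamts1, at 0.190 to 0.244. It was weak, as was that of Timp1 with Rps2 in GL261-GSCs, and neither was tested. These are Pearson correlations of log-scaled UMIs per 10000 over the cells of 1 library, computed over 9706 genes in GL261 and 9144 in GL261-GSCs after the values of the members had been seen. The cells share their library, and depth enters: Timp1 itself had correlations of 0.422 and 0.345 with the log of the UMIs per cell in GL261, and Timp3 0.165 and 0.119. In GL261-GSCs these were 0.191 to 0.244 for Timp1, -0.140 to -0.0148 for Timp3 and -0.261 to -0.0292 for Mmp2.

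Pairs of members were mostly seen together in cells about as often as the product of their shares gives. In GL261-GSCs, cells with both Mmp16 and Timp1 made up 0.70, 0.71, 0.76 and 0.66 of that product in replicates 1 to 4, and cells with both Mmp15 and Mmp16 1.12, 1.16, 1.25 and 1.09 of it. In GL261, Mmp14 and Mmp15 stood at 1.18 and 1.44 of the product, with 33 and 39 cells where the product gave 28.0 and 27.2. The same pair stood at 1.15, 0.91, 1.25 and 1.25 in GL261-GSCs replicates 1 to 4. These ratios describe thinned cells of 1 library each and were not tested.

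Within each library, cells with the highest share of UMIs from G2/M genes (the top 20%) were compared with the 50% with the lowest share, to see how the members vary with the cell cycle. Timp2 was lower in the G2/M-high cells of all 6 libraries, by 0.15 and 0.12 on the log2 scale in GL261 and by 0.91, 0.41, 0.32 and 0.32 in GL261-GSCs. Mmp14 was also lower in all 6, by 0.21 and 0.16 in GL261 and by 0.51, 0.26, 1.07 and 0.68 in GL261-GSCs. Both passed the test (log2 -0.33, SE 0.08, adjusted p = 0.00929 for Timp2 and -0.40, SE 0.10, adjusted p = 0.00946 for Mmp14, edgeR with the library as a block). They were 2 of the 8 members tested, while 45.6% of all 13781 genes tested were called and 25.9% were called lower. Mmp2, Mmp15, Mmp16, Timp1, Timp3 and Timp4 did not pass. Mmp16 passed as higher without GL261 replicate 2 (log2 0.23, adjusted p = 0.0288, edgeR) and without GL261-GSCs replicate 4 (0.29, adjusted p = 0.0309), and Mmp2 as lower without GL261-GSCs replicate 1 (-0.15, adjusted p = 0.0329). Mmp16 also passed with the top 10% of cells (0.36, adjusted p = 0.0281, edgeR) and under limma-voom (0.23, adjusted p = 0.0383). Mmp2 also passed with the top and lowest 30% of cells (-0.20, adjusted p = 0.00421, edgeR), with library size alone (-0.12, adjusted p = 0.0488) and with no filter (-0.13, adjusted p = 0.0442).

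Timp3 went in opposite directions in the groups. In GL261 it stood at 1599 and 2478 CPM in G2/M-high cells and at 2825 and 4144 CPM in G2/M-low cells. In GL261-GSCs it stood at 269, 271, 268 and 323 CPM in G2/M-high cells and at 209, 200, 189 and 260 CPM in G2/M-low cells. The ratio was below 1 in both GL261 libraries (log2 -0.82 and -0.74) and above 1 in all 4 GL261-GSCs libraries (0.36, 0.44, 0.50 and 0.31). The difference between the groups was 1.19 as a log2 value (SE 0.08, adjusted p = 0.00201, edgeR interaction test), and it was lost without GL261 replicate 1 (adjusted p = 0.198) and without GL261 replicate 2 (0.0501). Its size was 1.15 and 1.23 there, and 1.21 without GL261-GSCs replicate 4 (adjusted p = 0.000109). Mmp15 likewise had log2 ratios of -0.63 and -0.63 in GL261 against -0.18, 0.07, 0.08 and 0.17 in GL261-GSCs, a difference of 0.66 (adjusted p = 0.0497, edgeR interaction test). That call was lost under 7 of the 10 alternatives, among them the omission of GL261 replicate 1 (adjusted p = 0.521) or replicate 2 (0.505) and of GL261-GSCs replicate 2 (0.133) or replicate 3 (0.158). Of all genes, 0.348% were called in this test. G2/M-high cells were also deeper, with a median of 16531 against 14412 UMIs in GL261 replicate 1 and 7934.5 against 6811.5 in GL261-GSCs replicate 4, and the part of depth in these contrasts was not tested.

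**Figure D4:**
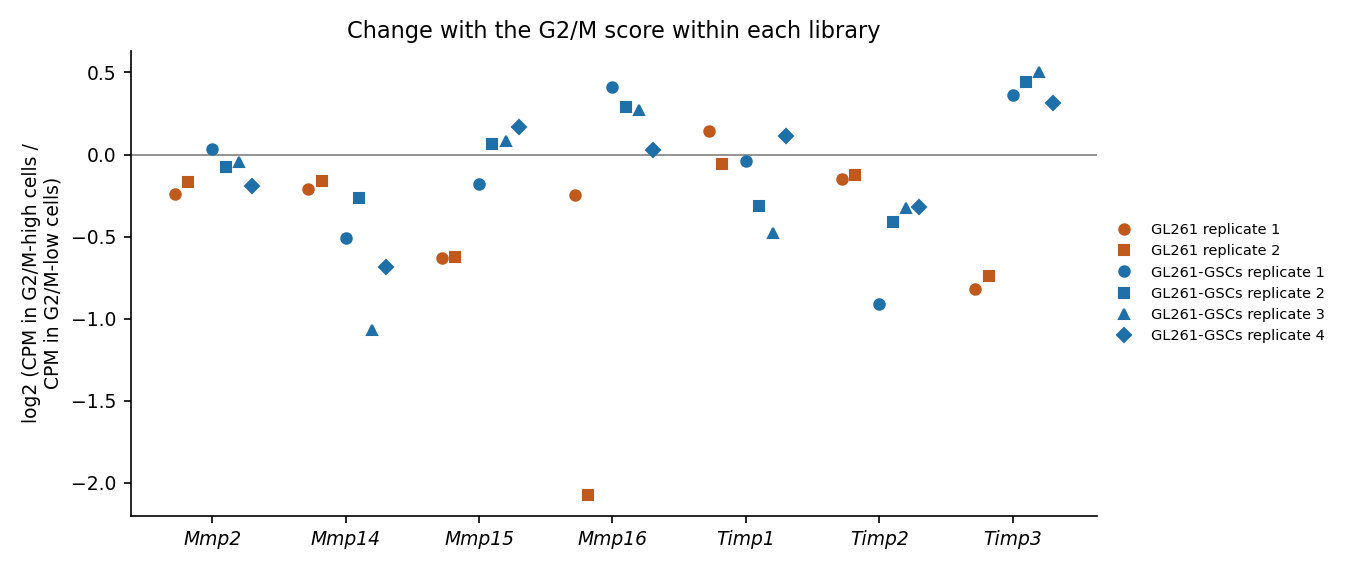
Log2 ratio of the level (CPM) in G2/M-high cells to that in G2/M-low cells, for the 7 tested genes with UMIs in both classes of every library. Points are libraries, orange for GL261 and blue for GL261-GSCs. Timp3 lies below 0 in both GL261 libraries and above 0 in all 4 GL261-GSCs libraries, while Mmp14 and Timp2 lie below 0 in all 6.

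Several members share their place in the genome with other genes. Timp1 lies inside Syn1, Timp3 inside Syn3 and Timp4 inside Syn2, each on the opposite strand to its synapsin, a gene of synaptic vesicle proteins. The exons of Timp1 and Syn1 share no base, whereas those of Timp3 and Syn3 share 1733 bases and those of Timp4 and Syn2 share 90 bases. No source used here gives the strand setting of the counting, so that values of such overlapping genes are uncertain. Syn3 was lower in GL261-GSCs like Timp3, at 23.6 and 40.1 CPM in GL261 and 4.94, 4.72, 7.98 and 10.7 CPM in GL261-GSCs (log2 fold change -2.18, SE 0.38, adjusted p = 0.00646, edgeR), a call lost without GL261 replicate 2 (adjusted p = 0.0722). Its 4017 UMIs in GL261 stand beside 369967 of Timp3. Syn1 stood at 5.18 and 3.84 CPM in GL261 and 3.84 to 4.94 CPM in GL261-GSCs (log2 fold change -0.01, adjusted p = 0.982, edgeR), and did not share the fall of Timp1. Syn2 had 14 UMIs, all in GL261-GSCs, and Cep295nl, which lies within Timp2 on the same strand without a shared exon base, had 243 and 23.

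Genes with the pattern most like each member over the 6 libraries were sought among 9139 genes, by the root mean square difference of log2 CPM after centring. The members' own root mean square about their means differed, at 0.246 for Mmp2, 1.28 for Mmp15 and 2.17 for Timp4. The same distance is thus a closer match for a member that varied more. For Mmp15 these were Creb5, Prag1 and St5, at 0.0569, 0.0764 and 0.0811 on the log2 scale. Timp3 was nearest to Mgst3, Calhm5 and Emp1 (0.126, 0.193 and 0.215), and Rai14 and Runx1 were among the genes nearest to Timp1 (0.238 and 0.239). Mmp14 was nearest to Eef2k, Erbb2 and Grk4 (0.138, 0.180 and 0.200) and Mmp2 to Zc3h11a, Wdfy2 and Grik3 (0.0599, 0.0842 and 0.0849). Timp2 was nearest to Rras2, Megf10 and Cnn2 (0.273, 0.285 and 0.307), and Mmp16 to Ppp2r2b, Rap1gap and Pllp (0.483, 0.505 and 0.534). The nearest gene to Timp4 was Enah, at 1.19, a larger distance than that of the nearest gene to each of the other members compared.

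Among 17 other metalloproteinase genes, 6 had enough UMIs to be tested, with 1 called higher and 2 lower and a median log2 fold change of -0.19. The counts for this list and for those that follow stand beside 15.8% called higher and 14.1% called lower over all genes in the test, with a median of 0.04. Mmp17, which encodes a membrane-anchored MT4-MMP, rose from 7.84 and 4.85 CPM to 46.6 to 59.7 CPM (log2 fold change 3.09, SE 0.25, adjusted p = 0.000342, edgeR). Mmp11, or stromelysin 3, stood at 19.5 and 20.2 CPM against 3.17 to 6.92 CPM (log2 fold change -1.98, adjusted p = 0.00874, edgeR), a call lost without GL261 replicate 1 (0.0586) and without GL261 replicate 2 (0.0668). TIMP3 is also known to inhibit several ADAM and ADAMTS proteases. Of 13 ADAM genes, 10 were tested, 1 was called higher and 1 lower, with a median of -0.12. Adam10, a sheddase of cell surface proteins, fell from 205 and 234 CPM to 72.3 to 92.2 CPM (log2 fold change -1.43, edgeR adjusted p = 0.000951). Adam12 stood at 14.0 and 11.4 against 23.3 to 53.8 CPM (log2 fold change 1.36, adjusted p = 0.0372, edgeR), a call lost without GL261 replicate 1 (0.151) or replicate 2 (0.232).

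Of 19 ADAMTS genes, 12 were tested, 6 were called higher and 1 lower, with a median log2 fold change of 1.16. Adamts1, a protease of versican and aggrecan, was the most abundant of those named, at 241 and 201 CPM in GL261 and 1520, 992, 1834 and 1647 CPM in GL261-GSCs (log2 fold change 2.76, SE 0.29, adjusted p = 0.00092, edgeR). Adamts9 rose from 3.70 and 1.99 CPM to 65.1 to 119 CPM (log2 fold change 5.10) and Adamts20 from 4.07 and 3.64 to 27.2 to 47.4 CPM (3.22). Adamts12 fell from 43.8 and 45.9 CPM to 15.3 to 21.6 CPM (log2 fold change -1.29). All 3 were called in every alternative run, as was Adamts1. All 4 GL261-GSCs libraries stood above both GL261 libraries for Adamts1, Adamts9 and Adamts20.

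Of 22 genes for activators, cell surface anchors and other regulators of these proteases, 18 were tested, 2 were called higher and 7 lower, with a median of -0.29. Thbs1, the matrix glycoprotein thrombospondin 1, stood at 1106 and 1533 CPM in GL261 and at 0.86 to 5.49 CPM in GL261-GSCs (log2 fold change -8.77, SE 0.69, adjusted p = 0.000334, edgeR). Plaur, the receptor of urokinase, fell from 317 and 322 CPM to 36.4 to 51.8 CPM (log2 fold change -2.79). Thbs2 rose from 18.1 and 11.6 CPM to 54.3 to 75.9 CPM (2.09). Serpine2, a protease inhibitor of nervous tissue, stood at 1.30 and 0.398 CPM against 6.98, 16.6, 55.9 and 48.3 CPM (log2 fold change 5.22, adjusted p = 0.0142, edgeR), a call lost without GL261 replicate 1 (0.0681) or replicate 2 (0.113).

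Of 28 matrix and adhesion genes whose proteins such enzymes cut, 24 were tested, 4 were called higher and 10 lower, with a median of -0.01. Fibronectin, Fn1, stood at 601 and 682 CPM in GL261 and 0.66 to 2.75 CPM in GL261-GSCs (log2 fold change -8.52, SE 0.66, adjusted p = 0.000312, edgeR). Col1a1, of type I collagen, fell from 247 and 282 CPM to 10.8 to 26.3 CPM (-3.93) and Lamb1, a laminin chain, from 212 and 192 CPM to 17.6 to 44.5 CPM (-2.60). The proteoglycans of brain matrix Bcan and Vcan rose, from 8.70 and 6.92 CPM to 55.1 to 135 CPM (3.82) and from 22.7 and 18.7 CPM to 40.6 to 53.7 CPM (1.27). Col3a1 stood at 6.01 and 5.003 CPM against 22.3, 180, 201 and 174 CPM (log2 fold change 4.71, adjusted p = 0.0113, edgeR), a call lost without GL261 replicate 1 (0.0907) or replicate 2 (0.105).

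All 20 genes of transcription factors known to act on promoters of this family were tested, 6 were called higher and 7 lower, with a median of -0.36. Fos, an AP-1 subunit, rose from 31.5 and 17.7 CPM to 68.8 to 104 CPM (log2 fold change 1.79, adjusted p = 0.00455, edgeR). Fosl1, another AP-1 subunit, fell from 94.8 and 97.9 CPM to 2.72 to 13.5 CPM (-3.82), so that subunits of the same factor went opposite ways. Runx1 and Runx2 fell, from 22.3 and 21.8 CPM to 1.90 to 3.42 CPM (-2.94) and from 29.2 and 28.8 CPM to 0.50 to 3.30 CPM (-3.89). The ETS factor Etv1 rose from 3.63 and 2.39 CPM to 38.1 to 68.1 CPM (4.04), and Etv4 from 14.9 and 13.9 CPM to 39.4 to 76.3 CPM (1.999), the latter call being lost without GL261 replicate 2 (0.0529). RNA levels of factors say nothing of their binding.

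**Figure D5:**
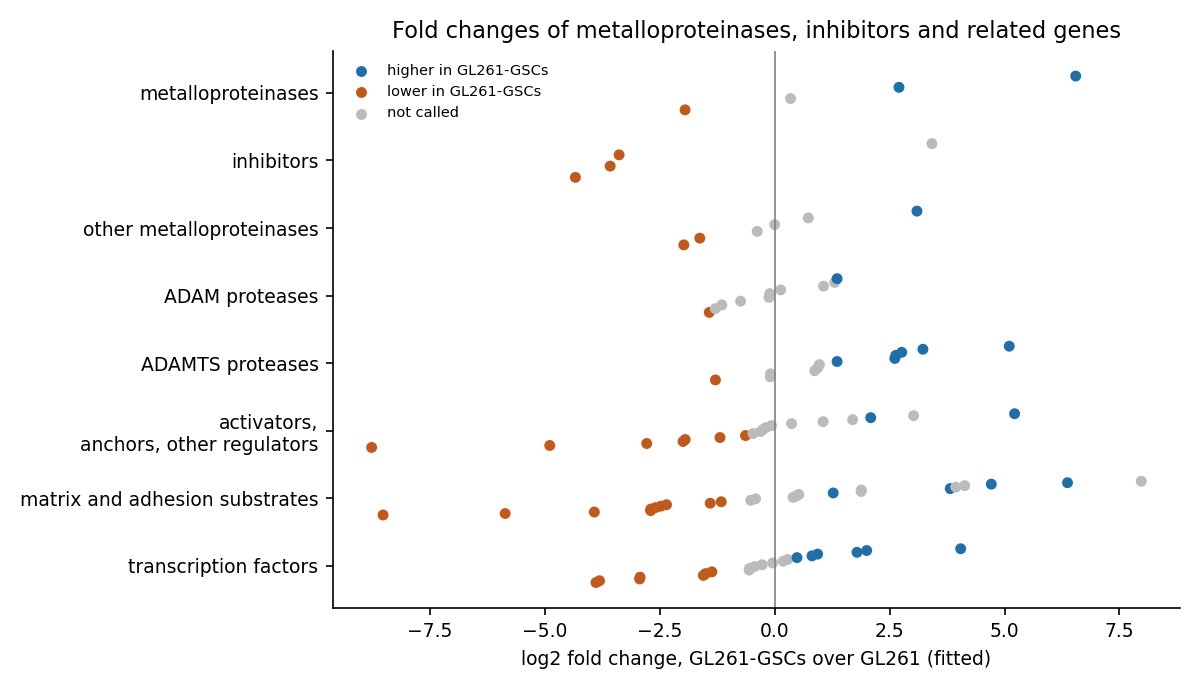
Log2 fold changes of GL261-GSCs over GL261 for every tested gene of the metalloproteinases and inhibitors (top) and of 6 lists of related genes, 1 point per gene. Blue points were called higher, orange points lower, and grey points did not pass an adjusted p of 0.05. The 3 called inhibitors lie between -4.34 and -3.39, and 6 of 12 ADAMTS genes were called higher, beside 15.8% of all genes in the test.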

How the data were processed

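The values deposited by the authors were raw UMI counts per gene and barcode in unfiltered matrices, produced with Cell Ranger 4, per the file headers. The submitters' processing notes name the genome mm10. Neither the annotation release nor the strand setting is given in the sources used here. Of 54446 identifiers, 54409 matched GENCODE M21 (GRCm38) without their version, and its coordinates are printed.

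A barcode was called a cell if its UMI count reached 10% of the 99th percentile among the 3000 largest barcodes, with 500 or more genes and mitochondrial UMIs below 10%. Doublets were not removed. UMIs were summed over the cells of each library (33320530 to 79472306), since cells are not replicates. The test was the quasi-likelihood test of edgeR 4.0.16 in R 4.3.3 with TMM scaling and filterByExpr, 2-sided, adjusted by Benjamini-Hochberg over all genes tested. All 6 libraries entered with no block. The SE is the absolute log2 fold change divided by the square root of F and can look too precise for scarce genes. Scripts were tested on simulated data. Free RNA was read from barcodes of 100 to 1000 UMIs. The G2/M contrast used 12 sums with the library as a block. Shares have exact binomial intervals, which cover counting error only, and exact permutation tests (scipy 1.17.1).

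The members and the gene lists were chosen with earlier results of these data known. The rule for named genes took all members, up to 3 of the largest rises and 3 of the largest falls per list among called genes whose average log2 CPM reached 3, and Syn1, Syn2 and Syn3. Correlations over cells, the alternatives for the difference of the G2/M contrast and the omission of 1 cell were added after the data were seen. Alternatives covered DESeq2 1.42.0, limma-voom (limma 3.58.1), other scaling, filters and cell calling, the replicate block and leaving out each library. Some genes that these rules would name are not reported here.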

Additional observations from a re-analysis of the deposited data

Results flagged for a closer look

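Timp4 stood at 7.83 CPM in GL261-GSCs replicate 2, apart from 0.485, 1.201 and 0.824 CPM in the other 3 GL261-GSCs libraries. The gap to the next library was 0.903 of the whole range of the 4, beyond the limit of Dixon's test. That test was applied to CPM and not to log levels, on which the gap was not computed. The share of cells with a Timp4 UMI at 2000 UMIs per cell, 1.67% (exact binomial 95% interval 1.36 to 2.03) in the same library, stood apart likewise, with a gap of 0.868 of the range. The share comes from the same UMIs as the level and is not separate evidence. Chance marks about 1 in 20 groups in this way. The UMIs were spread over cells: 465 of 5870 unthinned cells held 1 or more, and no cell held more than 5.

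The change of Timp3 with the G2/M score differed between the groups by 1.19 on the log2 scale (adjusted p = 0.00201, edgeR interaction test), a call lost without GL261 replicate 1 (0.198) and without GL261 replicate 2 (0.0501), with all 4 GL261-GSCs libraries above 0 and both GL261 libraries below. The change of Mmp15 differed by 0.66 (adjusted p = 0.0497, edgeR interaction test), a call lost under 7 of the 10 alternatives, with 3 of 4 GL261-GSCs libraries above 0 and both GL261 libraries below.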

How the results depend on the processing

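The 6 calls among the members held under other size factors, library size alone (which moves the median of all genes to 0.18), no filter, limma-voom, DESeq2, other cell calling and the replicate block. Leaving out a library gave 5 or 6 members called, Mmp14 being the one lost, and 1817 to 6193 genes called in all, against 5514, with 1972 without GL261 replicate 1 and 1817 without GL261 replicate 2. DESeq2 alone added Timp4 (log2 fold change 3.43, adjusted p = 0.0181). The log2 fold change of Timp4 ranged from 1.81 to 7.12 without single libraries. Deviations of same-numbered libraries from their group means had correlations of -0.0264 and 0.0367 for replicates 1 and 2. With 2 GL261 libraries these deviations mirror each other, so that the values cannot decide whether the numbers pair libraries. With the replicate number as a block, 6 members and 6512 genes were called, and the log2 fold change of Mmp14 was -1.34. Replicates 3 and 4 exist only in GL261-GSCs, so that this fit takes the group difference from replicates 1 and 2 alone.

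The near-zero G2/M contrast of Timp3 over all libraries (0.01) turned negative with the top 10% of cells (-0.0597), under limma-voom (-0.0610) and with no filter (-0.0112), and ranged from -0.0941 to 0.18 without single libraries. The number of genes whose G2/M contrast differed between the groups, 48, was 31 under library size alone, 30 under limma-voom and 97 with the top and lowest 30%, and ranged from 0 to 239 without single libraries. It was 0 without GL261 replicate 1 and 1 without GL261 replicate 2, with 991 and 984 genes at an unadjusted p under 0.05 (edgeR), against 1913 with all libraries. It was 16 without GL261-GSCs replicate 2, 2 without replicate 3 and 239 without replicate 4. The cause was not tested. The difference for Mmp15 kept its sign in all 10 alternatives, at 0.48 to 0.74, but its call was lost in 7 of them (adjusted p of 0.0510 to 0.521). With 2 GL261 libraries and few UMIs for Mmp3, Mmp9 and Timp4, depth and replication limit what can be said of them.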
